A study of Mus musculus with 9 samples.

Results

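The 10 genes Sepp1, Selt, Sepw1, Selk, Selm, Gpx1, Gpx2, Gpx3, Gpx4 and Txnrd1 were taken by symbol from a table of 21944 protein-coding genes measured by RNA sequencing. All 10 had a row and all 10 passed the filter of at least 1 FPKM (fragments per kilobase of transcript per M, or mega, mapped fragments) in at least 3 libraries, as did 12854 genes in all. They were chosen by name and family with their FPKM levels known, among them that of Sepp1, the gene with the second highest mean FPKM, so the levels are a description. N134 is a mouse pancreatic neuroendocrine tumour line, and the N134-RHAMMB line takes its name from RHAMMB, 1 isoform of RHAMM, the hyaluronan receptor made from Hmmr. The 9 libraries were 3 liver metastases of N134-RHAMMB (metastases 1, 2 and 3), 3 subcutaneous N134-RHAMMB tumours (numbered 1, 2 and 4) and 3 subcutaneous N134 tumours (1, 2 and 3). All hosts were NOD.Cg-PrkdcscidIl2rgtm1Wjl/SzJ (NSG) mice, whose lymphocytes and natural killer cells are missing while macrophages remain, and cells were injected subcutaneously or through a tail vein. Host age, how the RHAMMB line was made and whether it is 1 clone were not given in the sources used here. The labels do not tie the libraries of a group to separate animals, so the p-values reflect sample-to-sample spread that may be technical.

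Selenoproteins carry selenocysteine, an amino acid inserted at a TGA codon that would otherwise end translation. Insertion needs a stem-loop in the messenger RNA downstream of the reading frame, the binding protein SECISBP2 and a dedicated tRNA and elongation factor. In glutathione peroxidases and thioredoxin reductases the selenium atom takes part in catalysis, and these enzymes remove hydrogen peroxide and lipid peroxides or recycle thioredoxin. Pancreatic beta cells, from which insulin-producing tumours can arise, are known for low levels of several peroxide-removing enzymes.

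The reading frames around the selenocysteine codon show what the 10 genes share. Each of the 10 held at least 1 such codon in GENCODE M21 (GRCm38). Codons were counted in 1 protein-coding transcript per gene, that with most selenocysteine codons and then the longest coding sequence. Other transcripts of a gene may number the codon otherwise and are not shown. The codon is shown in capitals within its coding sequence, 5′ to 3′, first for the 4 glutathione peroxidases:
Gpx1: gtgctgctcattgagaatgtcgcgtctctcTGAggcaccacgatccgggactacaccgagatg
Gpx2: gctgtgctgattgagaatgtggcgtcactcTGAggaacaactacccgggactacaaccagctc
Gpx3: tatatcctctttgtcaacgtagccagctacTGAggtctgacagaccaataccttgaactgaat
Gpx4: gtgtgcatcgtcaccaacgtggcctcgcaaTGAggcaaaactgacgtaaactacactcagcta
Gpx1 and Gpx2 were identical at 77.8% of these 63 bases, against 55.6% for Gpx1 and Gpx4 and 42.9% for Gpx1 and Gpx3. The codon was number 47 of 201 in Gpx1 (chr9:108339451-108339453, + strand, exon 1 of 2), 40 of 190 in Gpx2 (chr12:76795256-76795258, − strand, exon 1 of 2), 73 of 226 in Gpx3 (chr11:54907256-54907258, + strand, exon 2 of 5) and 129 of 253 in Gpx4 (chr10:80054737-80054739, + strand, exon 3 of 7).

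In 3 small selenoproteins the codon came early, and a tgt codon for cysteine stood 3 codons before it, the arrangement known from thioredoxin-like folds:
Selt: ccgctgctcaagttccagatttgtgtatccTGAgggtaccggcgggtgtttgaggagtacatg
Sepw1: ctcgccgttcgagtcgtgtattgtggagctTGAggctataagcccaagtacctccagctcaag
Selm: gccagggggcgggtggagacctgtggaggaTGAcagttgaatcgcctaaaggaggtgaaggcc
Selt had the codon at position 49 of 195 (chr3:58585238-58585240, + strand), Sepw1 at 13 of 88 (chr7:15920464-15920466, − strand) and Selm at 48 of 145 (chr11:3516273-3516275, + strand). In Selk and Txnrd1 the codon lay close to the end of the frame, as the last coding stretches with their taa stops show:
Selk: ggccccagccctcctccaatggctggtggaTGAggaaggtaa
Txnrd1: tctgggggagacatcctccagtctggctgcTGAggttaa
It was number 92 of 94 in Selk (chr14:29973440-29973442, + strand) and 498 of 499 in Txnrd1 (chr10:82896037-82896039, + strand), where a tgc codon for cysteine directly preceded it.

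Sepp1 differed from the other 9 in holding 10 selenocysteine codons, the first at position 59 of 380 (chr15:3274848-3274850, + strand). The last 198 bases of its frame (chr15:3279513-3279710, + strand) carried 7 of the 10, in capitals:
Sepp1 end of frame: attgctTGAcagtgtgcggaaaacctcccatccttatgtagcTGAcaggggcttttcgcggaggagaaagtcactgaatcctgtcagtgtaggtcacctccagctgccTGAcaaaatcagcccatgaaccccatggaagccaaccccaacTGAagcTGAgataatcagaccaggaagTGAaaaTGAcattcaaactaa

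The levels of these genes need a caution about scale. GENCODE M21 marks a selenocysteine codon in 24 genes of the table, and 20 of the 24 were among the 1000 genes with the highest mean FPKM, a range that holds 4.56% of all genes. Of the 24, 9 were among the highest 100. The median of the 22 that were tested was 327.5 FPKM, against 11.84 FPKM over all tested genes. Of the peroxidases without the codon, Gpx7 and Gpx8 averaged 2.80 and 4.88 FPKM, and Gpx5 and Gpx6 were under 0.11 FPKM in every library. Some other genes of the pathway without the codon were above the median of tested genes, such as Scly at 106 FPKM and Sephs1 at 35.1 FPKM.

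**Figure D1:**
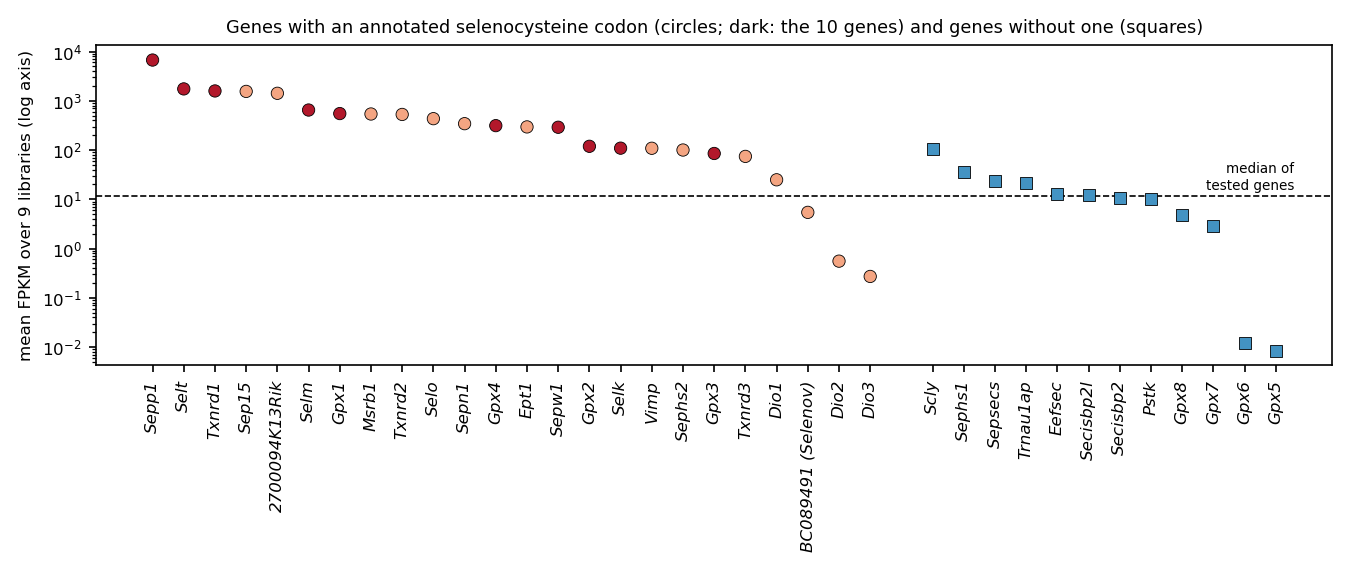
Mean FPKM over the 9 libraries (log axis) of the 24 genes with an annotated selenocysteine codon (circles, dark for the 10 genes described) and of 12 genes of the pathway without one (squares), each ordered by level. The dashed line is the median of all tested genes, 11.84 FPKM, and 21 of the 24 circles lie above it.

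Dio1, the type 1 iodothyronine deiodinase and itself a selenoprotein, is given in every library because its values, singled out after they were seen, fell into groups. As deposited, Dio1 was 9.34, 44.6 and 10.4 FPKM in the metastases, 30.3, 31.7 and 32.9 FPKM in the N134-RHAMMB tumours and 11.4, 40.5 and 12.5 FPKM in the N134 tumours. To follow fragment number, each value was divided by the FPKM of 1 fragment in its library relative to metastasis 1. This takes out the correction for depth. On this scale, in FPKM units of metastasis 1, Dio1 was 9.34, 48.8 and 10.6 in the metastases, 28.6, 29.8 and 29.2 in the N134-RHAMMB tumours and 11.5, 40.4 and 11.9 in the N134 tumours. Of the 9 values on this scale 4 lay between 9.34 and 11.9, 3 between 28.6 and 29.8 and the others at 40.4 and 48.8. By contrast, 1 fragment in its longest transcript (1690 bases) was worth 0.0318 to 0.04 FPKM. Values of BC089491 (Selenov by gene ID) on the same scale were 0.121, 0 and 0.00935 in the metastases, 26.5, 9.63 and 0.806 in the N134-RHAMMB tumours and 9.05, 0.387 and 0.0286 in the N134 tumours. How the authors' software treated the 3-base selenocysteine records of an annotation is not given in the sources used here, and the part of those records in the levels was not tested. The ranks and levels of these 10 genes beside genes that lack the codon describe the table and are not read as relative amounts of RNA. The tests below compare the same gene between libraries, which does not remove an effect on the levels that itself differs between libraries. Dio1 differed between libraries of the same group in metastases and N134 tumours. Whether such an effect has a part in the differences of the 10 genes below was not tested. The median within-group SD of log2(FPKM + 1) was 0.266 over the 21 selenocysteine genes at 10 FPKM or more. It was 0.182 over the 7118 genes at that level.

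**Figure D2:**
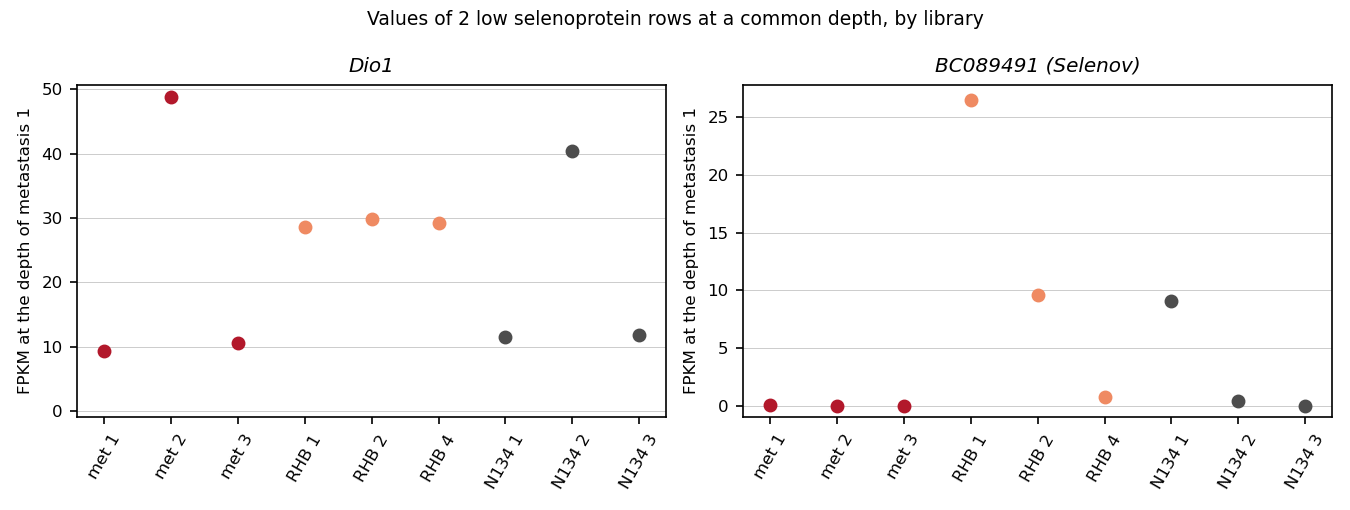
Dio1 (left) and BC089491 (right), 1 point per library, with metastases (met), N134-RHAMMB tumours (RHB) and N134 tumours (N134) from left to right. Values follow fragment number, without the correction for depth, in FPKM units of metastasis 1. The words on depth in the title and axis labels mean this scale. On this scale Dio1 has 4 values of 9.34 to 11.9, 3 of 28.6 to 29.8 and 2 higher, and BC089491 has 6 values of at most 0.806 and 3 of 9.05 to 26.5.

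Library sums were 436146 to 465345 FPKM, 12057 to 12542 genes reached 1 FPKM, and the estimated depth was 14.8 to 18.6 M (mega) fragments. All 8 beta cell markers (Ins1, Ins2, Iapp, Chga, Slc2a2, Pdx1, Nkx6-1 and Abcc8) reached 1 FPKM in each library. The 10 hepatocyte markers summed to 3472 to 3623 FPKM in metastases, 293 to 402 FPKM in N134-RHAMMB tumours and 341 to 433 FPKM in N134 tumours, and all 10 reached 1 FPKM in the metastases, against 3 to 5 in the tumours. The tumour sums were mostly Ttr, at 480 to 574 FPKM in metastases, 282 to 390 FPKM in N134-RHAMMB tumours and 334 to 427 FPKM in N134 tumours. The other 9 markers summed to 2952 to 3136 FPKM in metastases, 11.1 to 12.8 FPKM in N134-RHAMMB tumours and 5.83 to 7.76 FPKM in N134 tumours. In bulk RNA fewer cells of a type and less RNA per cell cannot be told apart. N134-RHAMMB tumours 2 and 4 held skeletal muscle transcripts, and the muscle markers with a row summed to 3.66 to 8.13 FPKM in metastases, 11.1 to 164 FPKM in N134-RHAMMB tumours and 8.69 to 18.2 FPKM in N134 tumours. Hmmr was 36.0 to 43.3 FPKM in metastases, 49.2 to 51.3 FPKM in N134-RHAMMB tumours and 39.2 to 44.9 FPKM in N134 tumours, and whether reads of the RHAMMB construct map to this row is not given in the sources used here.

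Differences between groups were tested in 3 comparisons with limma on log2(FPKM + 1), and every log2 difference, standard error (SE) and adjusted p below comes from that fit, adjusted over all tested genes. Between N134-RHAMMB and N134 tumours 0 of the 10 genes passed at adjusted p below 0.05, where 0.0778% of tested genes were called higher and 0.117% lower. By unadjusted p below 0.05, 1 of the 10 (Sepw1) and 1648 of all genes passed. Between metastases and N134-RHAMMB tumours Gpx1 rose and Gpx3 fell, where 5.04% of tested genes were called higher and 1.52% lower. Between metastases and N134 tumours Gpx1 rose and Gpx2, Gpx3 and Selt fell, where 5.69% of tested genes were called higher and 4.23% lower. The comparisons share groups, so their results are not independent of each other.

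**Figure D3:**
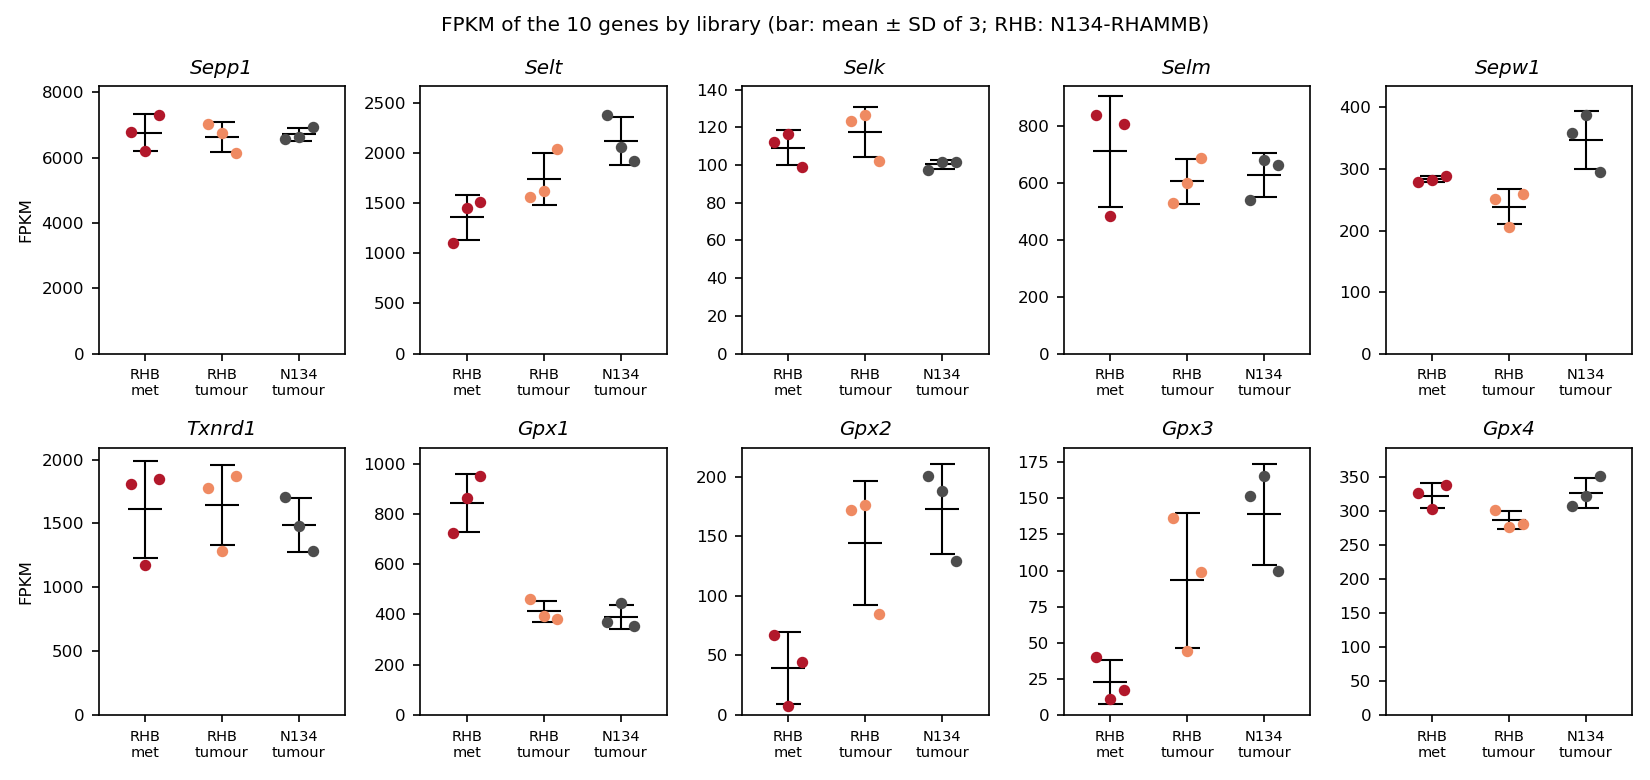
FPKM of each of the 10 genes in each library (points), with the mean and SD of the 3 libraries of a group (bars), for N134-RHAMMB metastases (RHB met), N134-RHAMMB tumours and N134 tumours. Gpx1 in metastases lies above all 6 tumours, and Gpx2 and Gpx3 in metastases lie below them.

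Gpx1, the main glutathione peroxidase of the cytosol and mitochondria, was about 2 times as high in metastases as in either kind of tumour. It measured 722, 861 and 950 FPKM in the metastases, 460, 395 and 383 FPKM in the N134-RHAMMB tumours and 372, 446 and 356 FPKM in the N134 tumours. The metastases lay above all 6 tumours, and the 2 tumour groups overlapped. The mean was 845 ± 115 FPKM in metastases, 413 ± 41.3 FPKM in N134-RHAMMB tumours and 391 ± 48.4 FPKM in N134 tumours (SD, n = 3 each). The log2 difference was 1.03 (SE 0.13, limma adjusted p = 0.000521) for metastases against N134-RHAMMB tumours and 1.11 (SE 0.13, limma adjusted p = 0.000289) for metastases against N134 tumours. With N134-RHAMMB tumour 1 as the only library of its group, the difference from N134-RHAMMB tumours was 0.87 and missed the threshold (limma adjusted p = 0.0672). The hepatocyte markers moved in the same direction as Gpx1, with Alb at 1504, 1410 and 1609 FPKM in the metastases and at most 1.60 FPKM in any tumour, and their part in the Gpx1 difference was not tested.

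Gpx3, the secreted plasma glutathione peroxidase, moved the opposite way to Gpx1. It measured 40.2, 11.4 and 17.4 FPKM in the metastases, 137, 44.0 and 99.3 FPKM in the N134-RHAMMB tumours and 152, 165 and 99.4 FPKM in the N134 tumours. All 3 metastases lay below all 6 tumours, but metastasis 1 at 40.2 FPKM was close to N134-RHAMMB tumour 2 at 44.0 FPKM. The tumour groups overlapped. The log2 difference was −2.02 (SE 0.47, limma adjusted p = 0.0277) for metastases against N134-RHAMMB tumours and −2.70 (SE 0.47, limma adjusted p = 0.00383) for metastases against N134 tumours. The first of these was lost in 8 of 20 alternatives (limma adjusted p = 0.0513 to 0.119), 5 of which left out metastasis 2 or 3, N134-RHAMMB tumour 1 or 4, or N134 tumour 1, and it was −2.71 without N134-RHAMMB tumours 2 and 4. The second held under every alternative run. The adipocyte markers were lower in metastases in their summed level. The 5 summed to 13.7 to 19.3 FPKM in metastases, 30.8 to 92.6 FPKM in N134-RHAMMB tumours and 51 to 69.0 FPKM in N134 tumours. These sums were mostly Fabp4, at 13.1 to 19.2 FPKM in metastases, 28.1 to 71.9 FPKM in N134-RHAMMB tumours and 45.8 to 55.4 FPKM in N134 tumours. Adipoq was listed at 0 in all 3 metastases. The 6 fibroblast markers summed to 171 to 390 FPKM in metastases, 272 to 471 FPKM in N134-RHAMMB tumours and 592 to 845 FPKM in N134 tumours, so the metastases overlapped the N134-RHAMMB tumours. Among them Dcn went the other way to Gpx3, at 24.4 to 34.0 FPKM in metastases, 10.6 to 14.9 FPKM in N134-RHAMMB tumours and 24.5 to 28.7 FPKM in N134 tumours (log2 difference between metastases and N134-RHAMMB tumours 1.23, limma adjusted p = 0.000512). The part of these markers in the Gpx3 difference was not tested.

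Gpx2, the glutathione peroxidase best known from the gut epithelium, was also lowest in metastases and spanned the widest ratio between its highest and lowest library (27.4). It measured 66.9, 7.32 and 44.5 FPKM in the metastases, 172, 176 and 84.5 FPKM in the N134-RHAMMB tumours and 201, 188 and 130 FPKM in the N134 tumours. The metastases lay below all 6 tumours, with metastasis 2 far below the other two. The log2 difference from N134 tumours was −2.53 (SE 0.64, limma adjusted p = 0.0320), and the difference from N134-RHAMMB tumours, −2.22 (SE 0.64, limma adjusted p = 0.0786), missed the threshold. Without metastasis 2 that second difference was −1.31 and passed (limma adjusted p = 0.0322), and without metastasis 1 it was −2.83 and also passed (limma adjusted p = 0.0269). The difference from N134 tumours missed the threshold in 7 of 20 alternatives (limma adjusted p = 0.0502 to 0.115), among them leaving out any 1 of the 3 N134 tumours, and it was −1.62 without metastasis 2 and −3.13 without metastasis 1.

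Gpx4, which reduces lipid peroxides in membranes and restrains ferroptosis, differed by at most 0.19 on the log2 scale between groups. It measured 328, 303 and 339 FPKM in the metastases, 302, 277 and 281 FPKM in the N134-RHAMMB tumours and 308, 322 and 352 FPKM in the N134 tumours. The N134-RHAMMB tumours were the lowest group, below all 3 libraries of each other group. However, N134-RHAMMB tumour 1 at 302.3 FPKM and metastasis 2 at 302.8 FPKM were nearly equal. Its log2 differences were 0.17 (95% interval −0.04 to 0.38) for metastases against N134-RHAMMB tumours, −0.02 (−0.22 to 0.19) for metastases against N134 tumours and −0.19 (−0.39 to 0.02) for N134-RHAMMB against N134 tumours, and 0 of the 3 passed. A processed pseudogene each of Gpx2 (Gpx2-ps1, chromosome 7) and Gpx4 (Gpx4-ps2, chromosome 10) is annotated, and how reads shared with them were counted is not given in the sources used here.

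**Figure D4:**
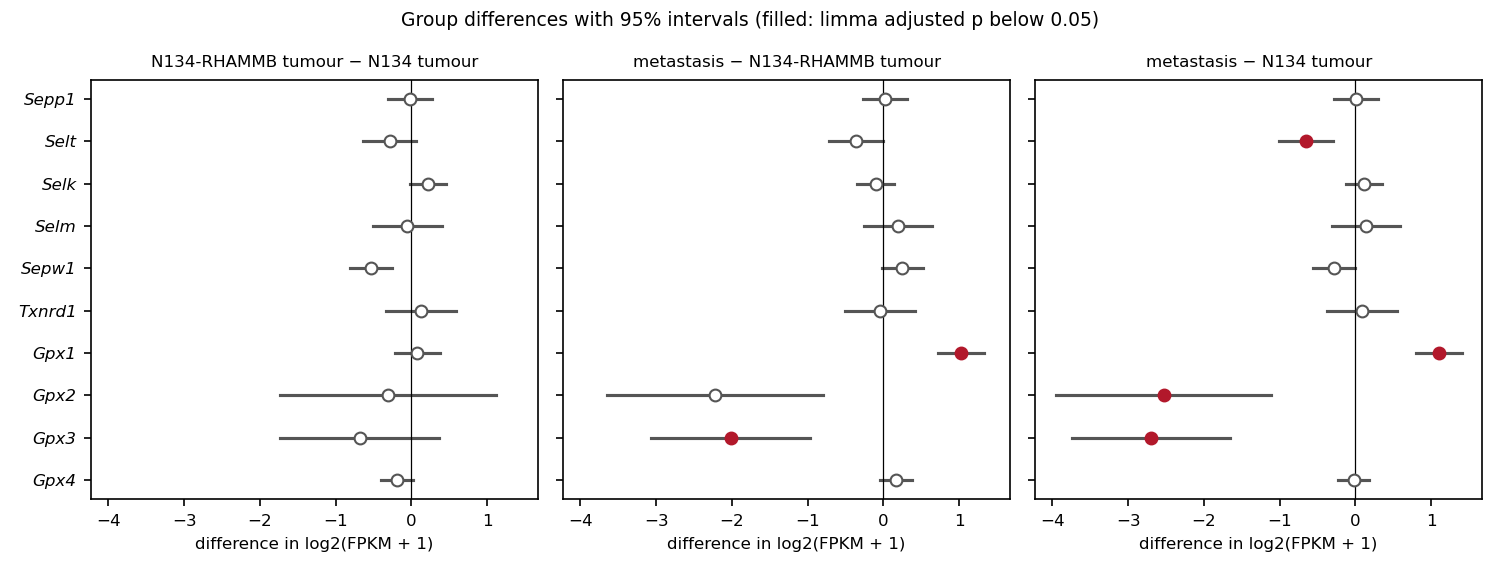
Difference in log2(FPKM + 1) with its 95% interval for the 10 genes, with N134-RHAMMB less N134 tumours in the first panel and metastases less N134-RHAMMB tumours and less N134 tumours in the other two. Filled points passed at limma adjusted p below 0.05: 0 in the first panel, Gpx1 and Gpx3 in the second, and Gpx1, Gpx2, Gpx3 and Selt in the third.

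Sepp1 encodes selenoprotein P, the secreted carrier that the liver sends to other tissues with selenium on board. It measured 6790, 6193 and 7317 FPKM in the metastases, 7018, 6751 and 6135 FPKM in the N134-RHAMMB tumours and 6574, 6643 and 6940 FPKM in the N134 tumours, and ranked 2 or 3 in every library. All 3 groups overlapped. Its log2 difference was 0.03 (95% interval −0.26 to 0.32) for metastases against N134-RHAMMB tumours, 0.01 (−0.28 to 0.30) for metastases against N134 tumours and −0.02 (−0.31 to 0.27) for N134-RHAMMB against N134 tumours. Hepatocyte markers differed between the same libraries by the sums given above. The caution about scale holds for Sepp1, and the part of hepatocytes or of the selenocysteine records in its levels was not tested. A stretch of 438 bases of Sepp1 exons overlaps Ccdc152 on the opposite strand, and the strand setting of the counting is not given in the sources used here. Of its 3 listed receptors, Lrp1 and Lrp8 were tested and 0 passed in any comparison, and Lrp2 stayed under 0.05 FPKM in every library. The largest log2 difference of Lrp1 was −0.56 (95% interval −1.08 to −0.04, limma adjusted p = 0.357), between N134-RHAMMB and N134 tumours.

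Selt, whose product sits in the endoplasmic reticulum membrane, was highest in N134 tumours. It measured 1105, 1455 and 1516 FPKM in the metastases, 1566, 1621 and 2038 FPKM in the N134-RHAMMB tumours and 2383, 2058 and 1916 FPKM in the N134 tumours. The metastases lay below all 6 tumours, and the tumour groups overlapped at 2038 and 1916 FPKM. Between N134-RHAMMB and N134 tumours the log2 difference was −0.29 (limma adjusted p = 0.492). It passed with library weights at −0.36 (limma adjusted p = 0.0435), a setting that called many more of all genes. The log2 difference was −0.65 (SE 0.16, limma adjusted p = 0.0279) for metastases against N134 tumours and −0.36 (SE 0.16, limma adjusted p = 0.292) for metastases against N134-RHAMMB tumours. The first was lost in 9 of 20 alternatives, among them median-of-ratios scaling (−0.60, limma adjusted p = 0.0543), quantile normalization (−0.48, limma adjusted p = 0.0692) and leaving out metastasis 1, N134 tumour 1 or N134 tumour 2 (limma adjusted p = 0.0812 to 0.122).

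Sepw1, a small thioredoxin-like selenoprotein abundant in muscle and brain, separated the 3 groups without passing. It measured 280, 282 and 288 FPKM in the metastases, 251, 206 and 259 FPKM in the N134-RHAMMB tumours and 358, 388 and 295 FPKM in the N134 tumours. No 2 groups overlapped, though 288 FPKM in metastasis 3 and 295 FPKM in N134 tumour 3 were close. The log2 difference between N134-RHAMMB and N134 tumours was −0.54 (SE 0.12, limma adjusted p = 0.141), and it passed with library weights at −0.44 (limma adjusted p = 0.0113). Those weights called 2629 of all 12854 tested genes in this comparison, against 25 without them. The log2 difference was 0.25 (95% interval −0.02 to 0.53) for metastases against N134-RHAMMB tumours and −0.28 (−0.56 to −0.01, limma adjusted p = 0.222) for metastases against N134 tumours.

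Selk, a component of the endoplasmic reticulum membrane, and Selm, which lies within its lumen, did not pass in any comparison without library weights. Selk measured 112, 117 and 98.9 FPKM in the metastases, 123, 127 and 102 FPKM in the N134-RHAMMB tumours and 97.6, 102 and 102 FPKM in the N134 tumours. Selm measured 840, 484 and 808 FPKM in the metastases, 531, 599 and 689 FPKM in the N134-RHAMMB tumours and 540, 680 and 663 FPKM in the N134 tumours. Metastasis 2 held the lowest Selm value of all 9 libraries and the other two metastases the highest. The largest log2 difference of Selk was 0.22 (95% interval −0.02 to 0.46), between N134-RHAMMB and N134 tumours, and that of Selm was 0.20 (−0.26 to 0.65), between metastases and N134-RHAMMB tumours. With library weights, which called many more of all genes, these were 0.27 (limma adjusted p = 0.0254) and 0.53 (limma adjusted p = 0.0249).

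Txnrd1 encodes the cytosolic thioredoxin reductase, which keeps thioredoxin reduced with NADPH. It measured 1809, 1172 and 1850 FPKM in the metastases, 1776, 1283 and 1870 FPKM in the N134-RHAMMB tumours and 1705, 1482 and 1284 FPKM in the N134 tumours. The groups overlapped throughout, and each held at least 1 library under 1500 and 1 above 1700 FPKM. Its log2 difference was −0.04 (95% interval −0.50 to 0.42) for metastases against N134-RHAMMB tumours, 0.09 (−0.37 to 0.55) for metastases against N134 tumours and 0.13 (−0.33 to 0.59) for N134-RHAMMB against N134 tumours.

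Among the other selenoproteins, 11 of 13 with a row under the listed symbols were tested, and 1 rose between metastases and N134-RHAMMB tumours. This was Msrb1, a methionine sulfoxide reductase, at 768, 608 and 618 FPKM in the metastases and 390, 490 and 471 FPKM in the N134-RHAMMB tumours, with a log2 difference of 0.56 (limma adjusted p = 0.0228). Metastases and N134 tumours, where Msrb1 measured 520, 509 and 470 FPKM, differed by 0.40 (limma adjusted p = 0.0778). The median log2 difference of the 11 was −0.12 for metastases against N134-RHAMMB tumours, 0.07 for metastases against N134 tumours and 0.09 for N134-RHAMMB against N134 tumours, beside −0.06, −0.03 and 0.01 over all tested genes. The other thioredoxin reductases, Txnrd2 in mitochondria and Txnrd3 in testis, did not pass. Of the 2 tested cysteine-type peroxidases, Gpx8 of the endoplasmic reticulum fell in metastases to 3.34, 2.85 and 4.18 FPKM, against 5.78, 8.61 and 6.37 FPKM in N134 tumours (log2 difference −0.82, limma adjusted p = 0.0161). The N134-RHAMMB tumours, at 3.64, 4.60 and 4.50 FPKM, overlapped the metastases, which differed from them by −0.24 (limma adjusted p = 0.597). N134-RHAMMB and N134 tumours differed in Gpx8 by −0.58 (limma adjusted p = 0.229).

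The machinery that makes and inserts selenocysteine did not pass in any gene or comparison (0 of 8 tested). Its largest absolute log2 difference was −0.33 for Eefsec, the selenocysteine elongation factor, between N134-RHAMMB and N134 tumours (limma adjusted p = 0.356), followed by −0.23 for the same gene between metastases and N134 tumours. By unadjusted p below 0.05, 1 of the 8 passed between N134-RHAMMB and N134 tumours, where 12.8% of all tested genes did. In both other comparisons 0 passed, beside 16.7% of all tested genes for metastases against N134-RHAMMB tumours and 21.4% against N134 tumours. The list's median was −0.05 for metastases against N134-RHAMMB tumours and −0.09 for metastases against N134 tumours. The 5 tested genes of lipid peroxidation around Gpx4 (Acsl4, Lpcat3, Aifm2, Dhodh and Gch1) also held 0 that passed. By unadjusted p below 0.05, 1 of the 5 passed between N134-RHAMMB and N134 tumours, beside the same 12.8% of all tested genes.

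Some other genes of peroxide removal and glutathione synthesis moved in metastases. Cat, which encodes catalase, measured 43.8, 54.8 and 54.4 FPKM in the metastases, 6.11, 4.85 and 8.84 FPKM in the N134-RHAMMB tumours and 9.14, 10.2 and 8.14 FPKM in the N134 tumours. Every metastasis was above every tumour, and the log2 difference was 2.80 against N134-RHAMMB tumours (limma adjusted p = 2.35e-06) and 2.35 against N134 tumours (limma adjusted p = 9.83e-06). Gclc, the catalytic subunit of the rate-limiting enzyme of glutathione synthesis, measured 16.6, 21.4 and 20.9 FPKM in the metastases, 10.1, 9.12 and 9.72 FPKM in the N134-RHAMMB tumours and 9.17, 10.4 and 10.3 FPKM in the N134 tumours. It rose by 0.95 on the log2 scale against N134-RHAMMB tumours (limma adjusted p = 0.000794) and by 0.91 against N134 tumours (limma adjusted p = 0.00102). Prdx6, a peroxiredoxin that reduces phospholipid peroxides, rose by 0.96 (limma adjusted p = 0.0202) and 0.81 (limma adjusted p = 0.0374) in the same comparisons. The hepatocyte marker sums stand beside these differences as they do beside Gpx1, and their part was not tested.

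Counted by list, 1 of 14 tested thioredoxin and peroxiredoxin genes rose and 0 fell in metastases against N134-RHAMMB tumours, and 2 rose (Prdx6 and the sulfiredoxin gene Srxn1, by 0.44, limma adjusted p = 0.0432) and 0 fell against N134 tumours. Of 6 tested glutathione synthesis and recycling genes, Gclc was the 1 that rose in both. Of 10 genes of superoxide and peroxide removal and NRF2 targets, 2 rose against N134-RHAMMB tumours, Cat and the extracellular superoxide dismutase gene Sod3 (0.81, limma adjusted p = 0.0144). Against N134 tumours Cat rose and 2 fell, the haem oxygenase gene Hmox1 (−2.74, limma adjusted p = 0.00507) and the quinone reductase gene Nqo1 (−0.71, limma adjusted p = 0.00976). Between N134-RHAMMB and N134 tumours 0 genes of any of these lists passed, and 6 of the 10 in the last list had an unadjusted p below 0.05, as had 12.8% of all tested genes. The counts of these short lists in metastases stand beside 5.04% called higher and 1.52% lower of all tested genes against N134-RHAMMB tumours, and 5.69% and 4.23% against N134 tumours. The 8 markers of macrophages, which are known to express Hmox1, summed to 156 to 241 FPKM in metastases, 219 to 272 FPKM in N134-RHAMMB tumours and 291 to 495 FPKM in N134 tumours. The 4 markers of Kupffer cells, the macrophages of the liver, summed to 4.26 to 11.2 FPKM, 0.999 to 3.54 FPKM and 1.41 to 7.48 FPKM in the same groups. The part of either list in the Hmox1 difference was not tested.

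The genes whose pattern over the 9 libraries was closest to a member were found by the root mean square difference of centred log2(FPKM + 1) values, among 9256 tested genes with a mean of at least 5 FPKM. For Gpx1 they were Dgat2 (0.113), Tmem176b (0.119) and Gclc (0.129), against a root mean square of 0.524 for Gpx1 around its own mean. For Gpx3 they were Fbln2 (0.441), Hmox1 (0.481) and Gucy2c (0.492), against 1.29 for Gpx3 itself. For Gpx2 they were Aif1l (0.562), Myo15b (0.575) and Gucy2c (0.586), against 1.40. Dgat2 averaged 22.0 FPKM in metastases, 10.7 FPKM in N134-RHAMMB tumours and 10.6 FPKM in N134 tumours, and Fbln2 averaged 2.53, 10.3 and 18.9 FPKM in the same 3 groups. For Selt they were Pmf1 (0.115), Tars2 (0.122) and Psrc1 (0.125), against 0.315 for Selt. The 6 other members had root mean squares of 0.0772 (Sepp1) to 0.256 (Selm) around their own means.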

How the data were processed

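Total RNA was purified on Qiagen columns, per the labels' protocols. The submitters' processing notes name bcl2fastq 2.19, STAR 2.5.2, Cufflinks 2.1.1 and GRCm38, without the role of each. Library kit, read length and strand setting: not given in the sources used here. The authors deposited 1 table of FPKM values for 22053 rows, per the file headers. FPKM divides by transcript length and library size, and counts are not used here. Of these rows, 7 with a failed estimate and 102 that repeated a symbol were left out. Depth was estimated from the lowest values of genes with 1 transcript of 2000 to 6000 bases, and 1 fragment in 2 kb was worth 0.0269 to 0.0338 FPKM.

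Genes with at least 1 FPKM in at least 3 libraries were tested on log2(FPKM + 1), which understates changes of low genes, with 1 limma 3.58.1 model over all 9 libraries in R 4.3.3 (intensity trend, 2-sided, Benjamini-Hochberg over 12854 genes, adjusted p below 0.05). Tests of 3 against 3 libraries by exact permutation cannot go below p = 0.1 and were not used. The fit was tested on simulated data with known changes. Selenocysteine codons and coding sequences came from GENCODE M21 transcripts; figures were drawn in Python 3.11.15.

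The 10 genes, the pathway and marker lists and the tests were chosen with earlier results of these data known. All 10 are named; of each list, genes that passed or else those with the largest absolute change may be named, and 3 genes of most similar pattern per member. BC089491 and Dio1 were singled out after their values were seen. Alternatives were another pseudocount, 2 other filters, 2 other scalings, 2 other variance models, library weights, only the 2 groups compared, a replicate block, N134-RHAMMB tumours 2 and 4 left out together, and each library left out.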

Additional observations from a re-analysis of the deposited data

How the results depend on the processing

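Over 30 differences of the 10 genes and 20 alternatives each, 532 values kept their direction and side of the threshold, 25 lost a call, 7 gained one and 36 changed sign. The sign changes were all of differences that had not passed; why they turned was not tested. Numbers of the 10 genes passing in metastases against N134-RHAMMB tumours and against N134 tumours were 1 and 2 with no filter on low values, with only the 2 groups compared, with the replicate block, and without N134-RHAMMB tumours 2 and 4 together, where the lone N134-RHAMMB library is assumed to vary like the other groups. Over all genes, having no filter gave 1062 calls for metastases against N134-RHAMMB tumours and 1567 against N134 tumours, with more genes tested. The filtered fit gave 843 and 1276. With library weights 3 of the 10 passed between N134-RHAMMB and N134 tumours and 4 between metastases and N134-RHAMMB tumours. That setting called 2629 and 1950 of all 12854 tested genes in these comparisons, against 25 and 843 without weights. Leaving out 1 library at a time, 0 passed between the tumour groups, 1 to 3 in metastases against N134-RHAMMB tumours and 2 to 4 against N134 tumours.

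Over all genes, 25 were called between N134-RHAMMB and N134 tumours, 843 between metastases and N134-RHAMMB tumours and 1276 between metastases and N134 tumours. A mean of at least 5 FPKM gave 15, 347 and 594, with fewer genes tested. For the tumour groups the count was 169 with only these groups in the fit, 2629 with library weights, 1 with the replicate block, 1 without N134-RHAMMB tumours 2 and 4, and 0 to 193 leaving out 1 library at a time (193 without metastasis 2, 0 without any 1 N134 tumour). For metastases against N134-RHAMMB tumours it was 1950 with library weights, 504 without N134-RHAMMB tumours 2 and 4, and 650 to 1137 leaving out 1 library; against N134 tumours it was 882 to 1571. Of the 843, 76.9% were higher in metastases, against 66.7% of those called with quantile normalization and 52% with library weights.

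Correlations between libraries of different groups were taken over tested genes after each gene's group mean was subtracted. These remainders correlated at −0.0027 to 0.102 for same-numbered libraries and at −0.195 to 0.15 for the others. The labels do not pair libraries, so the block shares only a number. With the block Gpx3 missed the threshold against N134-RHAMMB tumours (−1.74), as did Gpx2 (−2.53) and Selt (−0.65) against N134 tumours.

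In N134-RHAMMB less N134 tumours the sign turned for Sepp1 (0.034 with library weights, 0.076 with the block, 0.063 without N134-RHAMMB tumours 2 and 4), Gpx2 (0.013, 0.096 and 0.019 under the same alternatives) and Gpx3 (0.010 without tumours 2 and 4). Leaving out 1 library gave −0.062 to 0.035 for Sepp1, −0.16 to 0.040 for Selm, −0.0013 to 0.18 for Gpx1 and −0.50 to 0.037 for Gpx2. In metastases less N134-RHAMMB tumours it turned for Txnrd1 (0.013 with median-of-ratios scaling, 0.045 with quantile normalization, 0.013 with library weights, 0.057 with the block) and Sepp1 (−0.090 with quantile normalization, −0.0016 with library weights, −0.069 with the block, −0.056 without tumours 2 and 4), and leaving out 1 library gave −0.031 to 0.090 for Sepp1 and −0.21 to 0.17 for Txnrd1. In metastases less N134 tumours it turned for Gpx4 (0.024 with median-of-ratios scaling) and Sepp1 (−0.090 with quantile normalization), and leaving out 1 library gave −0.051 to 0.070 for Sepp1, −0.062 to 0.034 for Gpx4 and −0.023 to 0.31 for Txnrd1. With 3 libraries per group, small differences may go undetected.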

Other observations

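Other selenoprotein rows were also high in the table. Sep15, an endoplasmic reticulum selenoprotein, measured 1487, 1429 and 1226 FPKM in the metastases, 1836, 1692 and 1181 FPKM in the N134-RHAMMB tumours and 1697, 1821 and 1566 FPKM in the N134 tumours. Txnrd3 spread more within the tumour groups than between groups, at 62.5, 65.0 and 52.3 FPKM in the metastases, 109, 62.0 and 56.8 FPKM in the N134-RHAMMB tumours and 142, 72.2 and 45.6 FPKM in the N134 tumours. Sephs2, the selenophosphate synthetase that is itself a selenoprotein, measured 151, 119 and 98.3 FPKM in the metastases, 103, 69.9 and 99.1 FPKM in the N134-RHAMMB tumours and 80.9, 113 and 64.9 FPKM in the N134 tumours.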
